A study of Mustela putorius furo and Mus musculus with 4 samples.

Results

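Neuropeptides are cut out of larger precursor proteins, and the 10 genes described here encode precursors and the enzymes that act on them. They were taken by symbol, in either case, from the deposited values of cultured ferret and mouse astrocytes, as 3 precursors (Nts, Penk and Npy), 3 granins (Vgf, Scg2 and Chgb), 2 convertases (Pcsk1 and Pcsk2), the carboxypeptidase gene Cpe and the amidating enzyme gene Pam. Of the 13373 gene symbols that both species share, 9 were among these 10 genes. Pcsk2 had a mouse value and no ferret row under that symbol, and no member had several rows in a species. The genes were chosen on their FPKM in these same libraries, with the difference between ferret and mouse astrocytes already known, so their levels are given as a description and no p-value of a member is reported.

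The study asked how ferret astrocytes differ from mouse astrocytes. Cortices came from sable ferrets at postnatal day 1 and from wild-type ICR mice at postnatal day 1 to 3, a single ferret pup supplied several flasks, and several mouse pups were pooled in each flask. Both were grown as mixed glia in serum for 14 days, shaken for 12 hours to remove loosely attached cells and replated, and serum was then replaced by a serum-free medium with heparin-binding EGF-like growth factor before RNA was taken. There were 2 libraries per species. Neither the labels nor the methods say whether duplicates came from separate cultures, so the spread given here may be technical. The p-values below rest on this spread and may not measure variation among animals or cultures. Values are FPKM, fragments scaled by exon length and by the mapped fragments of the library, which allow levels of genes to be compared per length but hold no read counts. The lowest values, which step by single fragments, placed the depth of replicate 1 at 1.17 times that of replicate 2 in ferret and 0.829 times in mouse, and read counts, which would give the absolute depth, were not used here.

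In neuroendocrine cells a precursor enters the secretory pathway and is packed with granins into dense-core vesicles. The convertases encoded by Pcsk1 and Pcsk2 cut it after pairs of basic residues, carboxypeptidase E removes the basic residues that are left, and peptidylglycine alpha-amidating monooxygenase, the copper enzyme encoded by Pam, turns a terminal glycine into an amide. Astrocytes are known to make some of these proteins, carboxypeptidase E, enkephalin precursor and secretogranin II among them. The coding sequences show where pairs of basic codons lie. The stretches below are mouse GENCODE sequence on GRCm38, shown because they hold the pairs that flank neurotensin and neuromedin N, some of the enkephalins, and the end of neuropeptide Y. Capitals mark in-frame pairs of a lysine codon (AAA or AAG) or an arginine codon (CGN, AGA or AGG) followed by an arginine codon, read 5′ to 3′ on the coding strand only. The Nts stretch is chr10:102482337-102482438 (minus strand, codons 135 to 168, in exon 4 of 4), the Penk stretch is chr4:4133926-4134075 (minus strand, codons 191 to 240, in exon 2 of 2), and the Npy stretch is chr6:49827490-49827549 (plus strand, codons 64 to 83, in exon 3 of 4).
Nts: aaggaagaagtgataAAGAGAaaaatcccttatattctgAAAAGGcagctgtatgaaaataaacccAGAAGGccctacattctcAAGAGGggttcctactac
Penk: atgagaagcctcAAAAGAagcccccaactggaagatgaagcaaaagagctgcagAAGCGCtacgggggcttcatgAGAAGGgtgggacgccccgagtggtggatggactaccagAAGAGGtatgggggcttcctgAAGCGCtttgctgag
Npy: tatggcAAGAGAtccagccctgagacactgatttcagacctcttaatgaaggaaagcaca

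The Nts stretch held 4 pairs, the third of which lies within neurotensin itself and not at its end, and the Penk stretch held 5. In the Npy stretch a glycine codon (GGN) stands directly before its only pair, the arrangement that Pam products need. Over whole mouse coding sequences, Penk had 9 pairs in 268 codons and Nts 5 in 169. That is 3.36 and 2.96 pairs per 100 codons, against a median of 0.644 over 21549 genes with a coding sequence. Npy (2.06), Chgb (2.22) and Vgf (1.94) were also above 93% of genes, whereas Scg2 had 1.30 and Cpe 0.840. A glycine codon before a pair occurred in Npy, Nts, Vgf and Pcsk1 of the members and in 21.2% of all genes. Such a match describes the letters and is not evidence of cutting.

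Nts and Pam were abundant in ferret astrocytes and at or near 0 in the mouse values, Cpe was far higher in mouse astrocytes, and the granins divided. Vgf and Scg2 were higher and Chgb was lower in ferret astrocytes. Penk and Npy were low in both species and lower in ferret astrocytes. In these whole cultures, fewer cells of a type and less RNA per cell cannot be told apart. All 9 genes with values in both species reached the limit of a mean FPKM of 1 in at least one species. Of these, 3 passed only through ferret (Nts, Pam and Pcsk1), 3 only through mouse (Penk, Npy and Chgb) and 3 through both (Cpe, Vgf and Scg2). The 2 ferret libraries did not overlap the 2 mouse libraries for any of the 9 genes, which was also the case for 94.1% of the 10204 genes tested. For scale, 6 of the 9 lay past both limits used below for other genes, 4 higher and 2 lower in ferret, against 43.2% of all genes (13.1% higher and 30.1% lower). This contrast entered the choice of the members, and 6 of them passed the filter through only one species, so these counts test nothing.

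**Figure D1:**
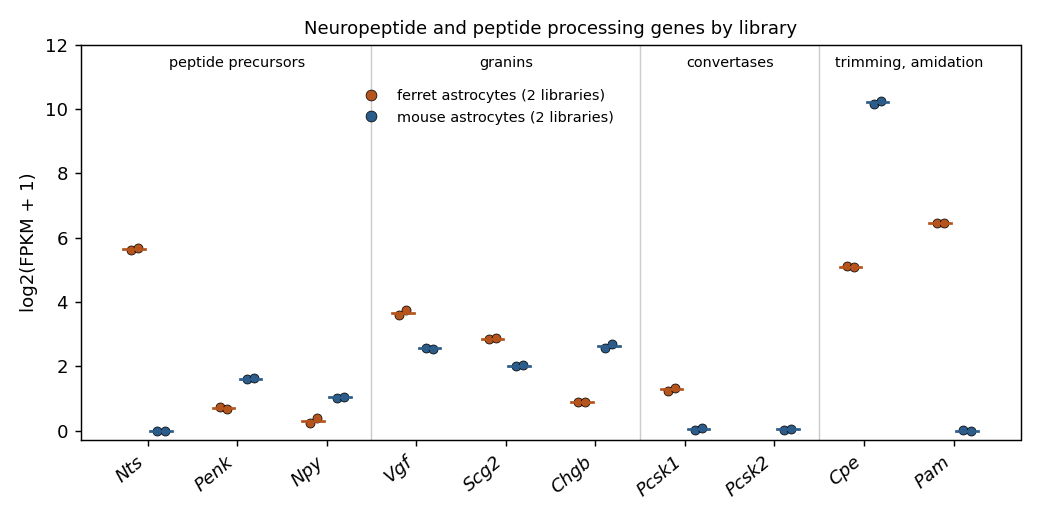
Level of each member as log2(FPKM + 1) in each library, ordered by role; points are libraries and bars are the means of the 2 libraries of a species. Nts and Pam stand at the floor in mouse, Cpe is the highest point of the plot in mouse, and Pcsk2 has no ferret points.

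Nts encodes the shared precursor of neurotensin and neuromedin N. It stood at 48.5 and 50.2 FPKM in the 2 ferret libraries and is listed at 0 in both mouse libraries. Its ferret mean of 49.4 ± 1.20 FPKM (SD, n = 2) exceeded that of 92.9% of the shared symbols. No ratio is given, because a value listed at 0 in FPKM can be a failed estimate. Mouse Nts spans chr10:102481756-102490486 on the minus strand, with no other annotated gene overlapping it.

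Penk encodes the precursor of the enkephalins, opioid peptides. It stood at 0.677 and 0.591 FPKM in ferret and at 2.05 and 2.08 FPKM in mouse libraries, so the mouse mean was 3.26 times the ferret mean. Npy, the precursor of neuropeptide Y, stood at 0.175 and 0.323 FPKM in ferret and at 1.02 and 1.09 FPKM in mouse libraries, a ratio of 4.24 between the means. Both mouse values of Npy lay just inside the limit of 1, and its ferret duplicates lay further apart, relative to their mean, than those of Penk. Both precursors were low in either species, with ferret levels above only 28.5% (Penk) and 23.1% (Npy) of the shared symbols and mouse levels above 33.5% and 28.4%.

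The granins are acidic cargo proteins of dense-core vesicles, and some are cut into peptides themselves. Vgf, the precursor of several such peptides, stood at 11.0 and 12.5 FPKM in ferret and at 5.002 and 4.84 FPKM in mouse libraries, a ratio of 2.39 between the means. Scg2 (secretogranin II, the precursor of secretoneurin) stood at 6.18 and 6.37 FPKM in ferret and at 3.02 and 3.10 FPKM in mouse libraries, a ratio of 2.05. Chgb (chromogranin B) stood at 0.841 and 0.845 FPKM in ferret and at 4.94 and 5.48 FPKM in mouse libraries, so the mouse mean was 6.18 times the ferret mean. The granins therefore did not move as a block.

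Ratios within a library do not depend on the scaling between species, but they still rest on the exon lengths in each species' own gene models. The ratio of Vgf to Scg2 in FPKM was 1.78 and 1.96 in the ferret and 1.65 and 1.56 in the mouse libraries, with Vgf above Scg2 in all 4. The ratio of Chgb to Scg2 was 0.136 and 0.133 in ferret and 1.63 and 1.77 in mouse libraries. Chgb was thus the lowest of the 3 granins in ferret astrocytes and level with Vgf in mouse astrocytes.

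The convertases were low wherever they had values. Pcsk1 stood at 1.37 and 1.52 FPKM in ferret and at 0.0232 and 0.0712 FPKM in mouse libraries. The ferret mean was 30.6 times the mouse mean, a ratio that rests on mouse values near 0 which differ about as much as their mean. Pcsk2 stood at 0.0259 and 0.0419 FPKM in mouse libraries, and 2 annotated antisense genes, Pcsk2os1 and Pcsk2os2, overlap it. Its level in ferret astrocytes was not analysed here.

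Cpe carried the largest difference in FPKM among the members. It stood at 33.9 and 32.8 FPKM in ferret libraries and at 1151 and 1223 FPKM in mouse libraries. The means were 33.3 ± 0.826 and 1187 ± 50.9 FPKM (SD, n = 2 each), a ratio of 35.6 in favour of mouse. Cpe ranked 13 among the 13373 shared symbols in mouse and 1446 in ferret astrocytes, so it was a well-expressed gene in both. Mouse Cpe spans chr8:64592542-64693054 on the minus strand, with no other annotated gene overlapping it.

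Pam was the highest member in ferret astrocytes, at 86.1 and 87.1 FPKM, above 96.8% of the shared symbols. The mouse libraries are listed at 0.00791 and 7.42e-10 FPKM, the second a value far too small to stand for any fragment. Values above 0 but under 1e-04 were rare in the mouse libraries, at 20 and 18 of the shared symbols. Mouse Pam spans 300533 bases at chr1:97795114-98095646 on the minus strand and contains 5 other annotated genes. The highest of these was the processed pseudogene Gm3531 (chr1:97948901-97949389, same strand), listed at 10.1 and 9.31 FPKM, while the other 4 were under 0.14 FPKM. The part of this overlap in the listed value of Pam was not tested.

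Zeros of this kind were few. Of 4367 shared genes with at least 10 FPKM in both ferret libraries, 9 (0.206%) were under 0.01 FPKM in both mouse libraries, and Nts and Pam were 2 of them. Among the others was Dut, an enzyme gene that dividing cells use, listed at 0 in both mouse libraries and the only one of 30 core genes of every cell with a value in both species to be listed at 0 in any library. Junb, an immediate early gene singled out after its values were seen, was also listed at 0 in both mouse libraries. The mouse values of Nts and Pam are therefore given only as listed. In the reverse case, 15 of 5390 shared genes with at least 10 FPKM in both mouse libraries were under 0.01 FPKM in both ferret libraries. Zeros listed in ferret carry the same limit. By distance on log2(FPKM + 1) over the 4 libraries, the shared genes nearest to Nts were Ldoc1 (0.13), Ifi44l (0.20) and Dut (0.35), and those near to Pam included Pmp2 (0.29) and Aldh1a3 (0.80).

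Within a species the order of levels was clear. In ferret astrocytes it ran from Pam through Nts, Cpe, Vgf, Scg2, Pcsk1, Chgb and Penk to Npy, and no neighbours in this order overlapped between their duplicates. In mouse astrocytes Cpe came first, followed by Chgb and Vgf, whose duplicates overlapped, and then by Scg2, Penk and Npy. Mouse Pcsk1 and Pcsk2 also overlapped each other near 0. Summed over the 9 genes, FPKM came to 189 and 192 in the ferret libraries and to 1167 and 1239 in the mouse libraries. Cpe made up 98.6% and 98.7% of this sum in mouse, and 18.0% and 17.0% in ferret, where Pam (45.6% and 45.3%) and Nts (25.7% and 26.1%) made up most of it.

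**Figure D2:**
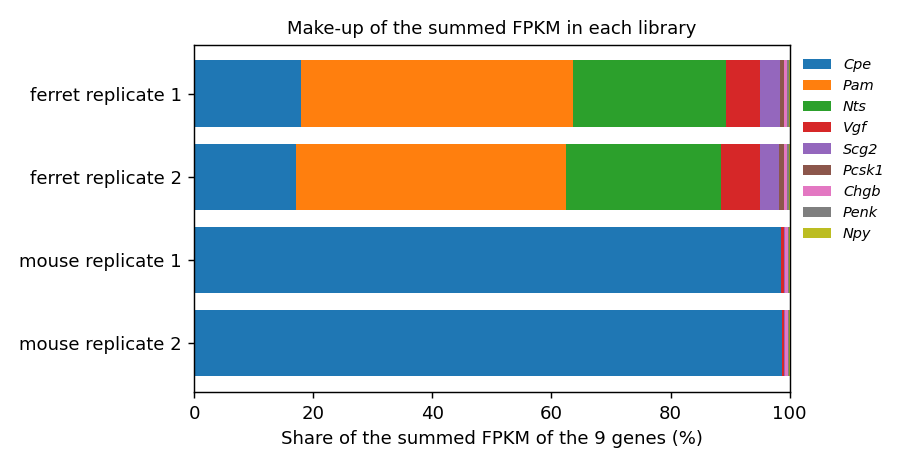
Share of each gene in the summed FPKM of the 9 members with values in both species, in percent, for each library. Cpe fills the mouse bars almost completely, whereas Pam, Nts and Cpe share most of the ferret bars.

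Libraries held markers of other cells at different levels. The 11 astrocyte markers had values above 0 in every library and summed to 4838 and 5046 FPKM in ferret and 7758 and 8304 in mouse libraries, with 8 of 11 lower in ferret, as Cpe was. Among these was Aqp4, a water channel gene (24.8 and 21.8 FPKM in ferret, 202 and 210 in mouse). Slc1a2, a glutamate transporter gene, was another (0.133 and 0.178 against 47.1 and 51.8). S100b was higher in ferret (247 and 244 FPKM, against 57.3 and 63.1 in mouse), as was Aldoc (1619 and 1700 against 916 and 1015). Gfap was at 1481 and 1522 in ferret and 1429 and 1546 in mouse libraries. Neuronal markers, of interest because neurons express most neuropeptide genes, summed to 64.2 and 66.5 FPKM in ferret and to 34.8 and 35.9 FPKM in mouse libraries, with 12 of 15 higher in ferret. Map2, which was lower in ferret, made up 30.4 and 31.3 FPKM of the mouse sums. Without it, a choice made after its values were seen, the sums were 45.5 and 47.5 in ferret and 4.42 and 4.56 in mouse libraries. Dlx1 and Dlx2 made up most of what was then left in ferret. Rbfox3 and Slc17a7, the other markers lower in ferret, stayed in these sums. The interneuron lineage genes Dlx1 (17.0 and 19.0 against 0.464 and 0.222) and Dlx2 (11.8 and 10.8 against 0.674 and 0.583), the neurofilament gene Nefl (4.42 and 5.68 against 0.137 and 0.0917) and Dcx, a gene of young neurons (1.66 and 1.25 against 0.0150 and 0.0412), were higher in ferret. The mature neuron gene Rbfox3 was under 0.1 FPKM and the glutamatergic gene Slc17a6 under 0.02 in all 4 libraries. Oligodendrocyte lineage markers summed to 90.4 and 97.3 FPKM in ferret and 23.5 and 21.4 in mouse, with 7 of 9 higher in ferret. All 11 microglial markers were lower in ferret, with sums of 73.4 and 73.8 against 310 and 305 FPKM. The defining microglial gene Cx3cr1 is listed at 0 in both ferret libraries. All 8 fibroblast markers were lower too, with sums of 159 and 146 against 1256 and 1245. The part of these cells in the levels of the members was not tested.

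Other genes of the peptide pathway were compared by limma with Benjamini-Hochberg adjustment over all 10204 genes tested. A gene was called at an adjusted p under 0.05 and an absolute difference above 1 on the log2(FPKM + 1) scale, which understates the change of low genes. The 8 lists held 151 genes, of which 134 had values in both species and 81 were tested. Of these, 12 were called higher and 26 lower in ferret astrocytes, 46.9% in all against 43.2% of all genes tested, a share near the background. The median log2 difference was -0.34 over the pathway genes and -0.35 over all genes. Scaling moved the split. With the libraries rescaled to equal sums over the shared symbols, 20 pathway genes were called higher and 22 lower, and the median of all genes was -0.0019. The share of higher genes among all calls moved from 30.3% to 47.0%, and to 49.98% after quantile normalization.

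Most other neuropeptide precursors were barely detected. Of 48, 40 had values in both species and 32 of these stayed under a mean of 1 FPKM in both, such as Sst, Vip, Cck and Tac1, precursors found in cortical interneurons. None of these 4 exceeded 0.374 FPKM in any library. Of the 8 tested, 2 were called higher and 3 lower in ferret. Pthlh, which encodes a parathyroid hormone-like peptide, stood at 4.06 and 3.31 FPKM in ferret and 0.362 and 0.389 in mouse libraries (log2 difference 1.76, standard error 0.093, adjusted p = 4.44e-08). Ucn, the urocortin precursor, stood at 2.54 and 2.196 FPKM in ferret and is listed at 0 in both mouse libraries. Npvf, the precursor of RFamide-related peptides, was the reverse, at 39.7 and 41.1 FPKM in mouse and listed at 0 in both ferret libraries. Pomc, at 1.37 and 1.26 FPKM in mouse, is likewise listed at 0 in ferret, and Nppc, the C-type natriuretic peptide precursor, stood at 0.0274 and 0 FPKM in ferret and 3.20 and 2.95 in mouse libraries (log2 difference -2.01). Adm, the adrenomedullin precursor, was the best expressed in ferret, at 33.1 ± 0.352 against 45.8 ± 1.62 FPKM (SD, n = 2 each), and was not called.

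The other granins and convertase helpers also divided in direction. Scg5, a chaperone of the Pcsk2 product, stood at 1.46 and 1.25 FPKM in ferret and 107 and 114 in mouse libraries (log2 difference -5.57, standard error 0.072, adjusted p = 8.89e-12). Scg3, which binds granins during vesicle formation, stood at 47.4 and 46.7 FPKM in ferret and 118 and 127 in mouse libraries, a log2 difference of -1.36 that was -0.97, and no longer called, after rescaling to equal sums. Scg3 was therefore well expressed in both species. Pcsk1n, whose product proSAAS inhibits the Pcsk1 convertase, stood at 28.2 and 27.8 FPKM in ferret and 12.2 and 14.1 in mouse libraries (log2 difference 1.04). It was 0.94, and not called, without mouse replicate 1. Chga stood at 2.39 and 2.72 FPKM in ferret and 0.595 and 1.08 in mouse libraries. Its log2 difference of 0.97 was just under the limit, and it was called higher after either rescaling (1.20) or quantile normalization (1.32), with a pseudocount of 0.1, and without ferret replicate 1 (1.03) or mouse replicate 2 (1.16).

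**Figure D3:**
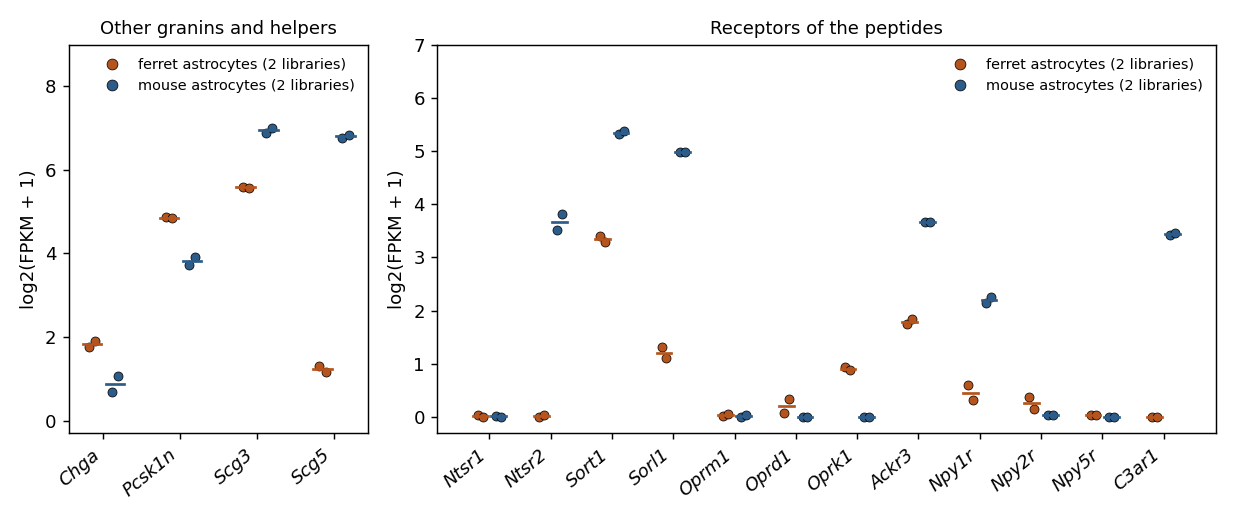
Levels as log2(FPKM + 1) in each library of the other granins and helpers (left) and of the receptors of the members' peptides (right); points are libraries and bars the means of the 2 libraries. Scg3, Scg5 and 6 receptors are lower in ferret than in mouse, and Chga and Pcsk1n are higher. Oprk1 stands above the floor in ferret only, and the remaining receptors lie near the floor.

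Receptors were the list with the lowest median. Of 14 receptors of neurotensin, enkephalins, neuropeptide Y and a Vgf peptide, 12 had values in both species, and the 6 that reached a mean of 1 FPKM were all called lower in ferret astrocytes, where 30.1% of all genes were. Their median log2 difference was -2.72. C3ar1, which is listed at 0 in ferret, enters this median at its fitted value. All 6 calls held after rescaling, after quantile normalization and without any 1 library. All 6 reached the filter limit in mouse and only 3 of them (Sort1, Sorl1 and Ackr3) did so in ferret. The filter took genes that reached this limit in either species, so it did not itself favour genes high in mouse. The receptors under the filter each had a higher mean in ferret, with means under 1 FPKM in both species.

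Neurotensin receptors were among them. Ntsr2, which astrocytes are known to express, stood at 0 and 0.0256 FPKM in ferret and 10.5 and 13.2 in mouse libraries (log2 difference -3.65, standard error 0.103, adjusted p = 6.01e-10). Sort1, or sortilin, which also binds neurotensin, stood at 9.57 and 8.85 FPKM in ferret and 38.7 and 40.4 in mouse libraries (log2 difference -1.99). Sorl1, a relative of sortilin, stood at 1.48 and 1.15 FPKM in ferret and 30.4 and 30.7 in mouse libraries (log2 difference -3.77). Ferret astrocytes, in which Nts was abundant, thus had Sort1 as the one receptor gene of this group above 2 FPKM. Ntsr1 was at or under 0.0245 FPKM in all libraries.

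Npy1r, a receptor of neuropeptide Y, stood at 0.515 and 0.251 FPKM in ferret and 3.41 and 3.80 in mouse libraries (log2 difference -1.74). Ackr3, an atypical chemokine receptor that also takes up opioid peptides, stood at 2.35 and 2.57 FPKM in ferret and 11.7 and 11.8 in mouse libraries (log2 difference -1.88). C3ar1, a complement receptor that also binds a Vgf peptide, is listed at 0 in both ferret libraries and stood at 9.76 and 9.94 FPKM in mouse libraries. C3ar1 is also a microglial gene, and the microglial marker sums given above were lower in ferret. The remaining receptors were not tested in the main comparison. Oprk1, the kappa opioid receptor gene, stood at 0.913 and 0.848 FPKM in ferret and 0.00655 and 0 in mouse libraries. It passed the filter only after rescaling, where it was called higher in ferret. The other opioid receptor genes Oprm1 and Oprd1, and Npy2r and Npy5r, stayed at or under 0.300 FPKM in every library.

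Enzymes that cut or trim other precursors gave 3 genes called higher and 3 lower of 13 tested. Furin, the general convertase of the secretory pathway, stood at 16.4 ± 1.20 FPKM in ferret and 17.7 ± 0.490 in mouse (SD, n = 2 each; log2 difference -0.11, adjusted p = 0.178). Pcsk6 was lower in ferret (3.58 ± 0.170 against 15.4 ± 0.254 FPKM, SD, n = 2 each; log2 difference -1.84), as were Cpz and Cpxm1 of the carboxypeptidase family (log2 differences -3.04 and -2.72). Cpm, a membrane carboxypeptidase, was higher, at 1.75 and 2.55 FPKM in ferret and 0.0941 and 0.173 in mouse libraries. Pcsk4 and Pcsk7 were called higher with log2 differences of 1.14 and 1.01. Both calls were close to the limit, since Pcsk4 was at 0.99 without mouse replicate 2 and Pcsk7 at 0.93 without ferret replicate 2 and 0.98 without mouse replicate 1. Cpd, which like carboxypeptidase E removes basic residues, was measured at 38.4 ± 0.679 FPKM in ferret and 20.6 ± 0.150 in mouse (SD, n = 2 each). Its log2 difference of 0.87 became 1.24, and called, after rescaling.

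Of 5 genes that supply copper, the metal the Pam enzyme needs, Atp7b, a copper pump, was called higher in ferret (6.58 ± 0.429 against 2.15 ± 0.0285 FPKM, SD, n = 2 each; log2 difference 1.27, adjusted p = 1.41e-07). Atp7a, the pump that loads copper into enzymes of the secretory pathway, stood at 4.81 and 7.02 FPKM on average in ferret and mouse (log2 difference -0.47). The copper importer gene Slc31a1 (-0.65), its relative Slc31a2 (-0.69) and the chaperone gene Atox1 (0.39) were not called either. All 5 were thus expressed in both species.

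Of 15 tested peptidases that cut peptides, a list not divided by where the enzymes act, 3 were called higher and 5 lower in ferret. The balance turned with the scaling, to 5 higher and 4 lower after rescaling and 5 higher and 3 lower after quantile normalization, where Ece1 and Ace were also called higher. Dpp4, called lower at -1.22, was not called after quantile normalization (-0.93). Mme, which encodes neprilysin, an enzyme that inactivates enkephalins, stood at 0.0286 and 0.0168 FPKM in ferret and 5.62 and 6.35 in mouse libraries (log2 difference -2.77). Anpep, an aminopeptidase that also cuts enkephalins (log2 difference -2.15), and Lnpep (-1.76) were lower as well. Prep, Dpp7 and Thop1 were higher, by log2 differences of 2.41, 2.02 and 1.18. Thop1, whose product cuts neurotensin, stood at 30.1 and 31.1 FPKM in ferret and 12.7 and 13.2 in mouse libraries, while Nln, another neurotensin-cutting enzyme, stood at 16.3 and 24.7 FPKM on average (log2 difference -0.58) and was not called. Tpp2, with a log2 difference of -1.02, was not called after rescaling (-0.65) or quantile normalization (-0.62), nor without ferret replicate 2 (-0.98) or mouse replicate 1 (-0.93).

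Of 23 tested genes of dense-core vesicle formation and release, 1 was called higher and 5 lower in ferret. After rescaling or quantile normalization it was 4 and 4, since Ptprn2, Snap23 and Sytl4 were then also called higher. Rab3d, a small GTPase of secretory granules, stood at 17.7 and 19.5 FPKM in ferret and 4.36 and 4.55 in mouse libraries (log2 difference 1.84, standard error 0.074, adjusted p = 6.40e-09). Rab27b, a GTPase of vesicle docking, stood at 0.0819 and 0.0960 FPKM in ferret and 10.9 and 11.6 in mouse libraries (log2 difference -3.49). Ptprn, a membrane protein of dense-core vesicles, and Syt9, a calcium sensor of release, were lower by log2 differences of -2.44 and -1.91. Rab3a, called lower at -1.23, was not called after rescaling (-0.90) or quantile normalization (-0.81). Most of the list, 17 genes, was not called. Of 7 tested regulators, 1 was called higher and 2 lower, against 1 and 1 after rescaling and 2 and 1 after quantile normalization, where Rcor1 was also called higher. Insm1, a neuroendocrine transcription factor, was higher in ferret (1.73 ± 0.120 against 0.0268 ± 0.00947 FPKM, SD, n = 2 each; log2 difference 1.41). Atf1 and Crem, both of the CREB family, were lower by log2 differences of -2.45 and -1.35, the second of which was -0.99 after rescaling and -0.94 after quantile normalization and then not called. Rest, the repressor of neuronal genes, stood at 5.45 ± 0.249 and 4.63 ± 0.00792 FPKM (SD, n = 2 each; log2 difference 0.20) and was not called.

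**Figure D4:**
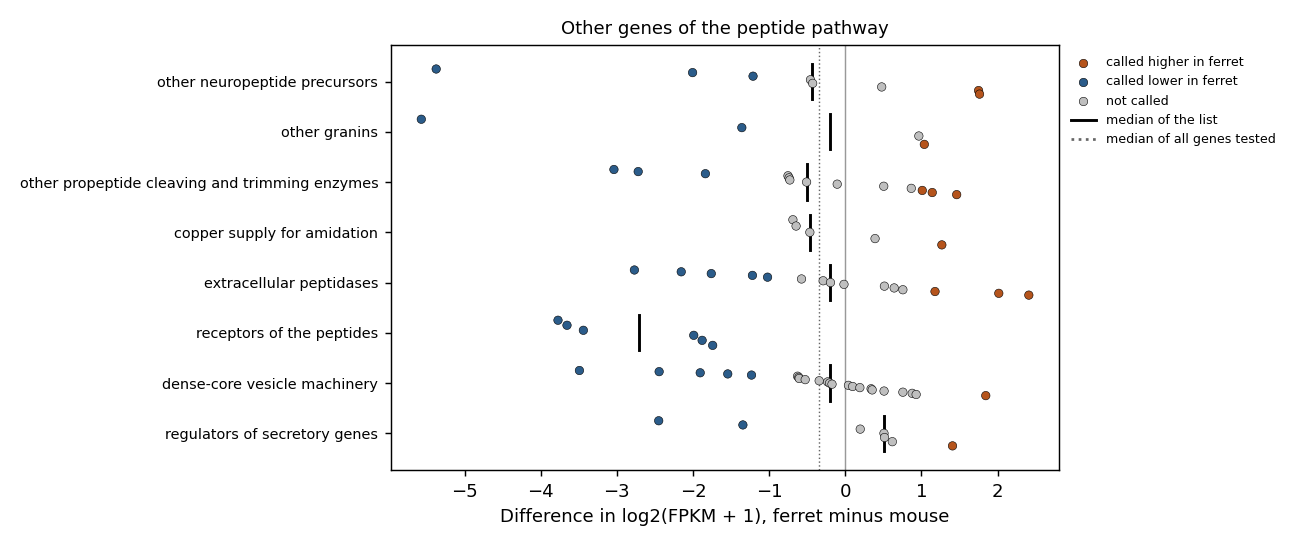
Difference in log2(FPKM + 1), ferret minus mouse, of the 81 tested pathway genes in 8 lists; each point is a gene, black bars are list medians, and the dotted line is the median of all genes tested. The tested receptors lie entirely to the left, whereas the other lists spread to both sides. Receptors under the filter are not shown, and each of them had a higher mean in ferret.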

How the data were processed

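RNA-seq of 4 libraries, 2 from ferret and 2 from mouse astrocytes, was analysed. Per the methods and the submitters' processing notes, the authors aligned polyA-selected, stranded reads with STAR (2.7.0f) to the Ensembl genome of each species and deposited FPKM per gene from Cufflinks (2.2.1). Each species rests on its own gene models, so species, annotation and culture cannot be told apart.

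Symbols were matched in upper case, taking the row with the highest mean. Values were set to log2(FPKM + 1), and the 10204 genes whose mean reached 1 FPKM in either species were fitted with limma (3.58.1, R 4.3.3, empirical Bayes with a trend). On simulated data for these 10204 genes, with 200 changed, 98% of changes of 1.5 and 100% of changes of 3 (log2) and 0 unchanged genes were called. The simulated noise came from these duplicates, and the simulated species had no common shift. The simulation therefore cannot show how many calls in the real data are false. An exact permutation test of 2 against 2 libraries cannot pass 0.05 for a single gene, so p-values come from this fit alone.

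The members and lists were chosen with earlier results of these data known. The text names all members, all receptors, other granins and copper genes, and of each further list the called genes with the 3 largest differences in each direction. For Nts and Pam it also names the genes with the nearest levels, of which 1 is not reported here. Adm, Furin, Cpd, Nln, Rest, Tpp2, Dpp4, Ece1, Ace, Rab3a, Ptprn2, Snap23, Sytl4, Rcor1, the named astrocyte and neuronal markers, Gm3531 and the 4 interneuron precursors were added after their values were seen. Mouse coordinates and coding sequences are GENCODE on GRCm38 (longest complete coding sequence per gene), the authors' build in another annotation release. No ferret sequence was used here. Alternatives were other scalings, a pseudocount of 0.1, no filter, summed rows, the replicate number as a block and each library left out.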

Additional observations from a re-analysis of the deposited data

How the results depend on the processing

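No member changed direction under any scaling, pseudocount, summing of rows or left-out library. Most of this was fixed in advance. Libraries of the species did not overlap for any member with values in both, and no member had several rows. A new pseudocount, summed rows or a left-out library therefore could not turn a direction, and the members were chosen on this contrast. The size of the differences moved with the scaling, since the ferret libraries had smaller sums over the shared symbols. Vgf went from a log2 difference of 1.10 to 1.45 after rescaling to equal library sums, Scg2 from 0.84 to 1.16 and Cpe from -5.11 to -4.73. With a pseudocount of 0.1, Pcsk1 went from 1.22 to 3.41 and Chgb from -1.75 to -2.49. Genes called higher in ferret numbered 1336, and 2080 after quantile normalization. Pathway genes called higher numbered 12, and 20 after rescaling or quantile normalization, and between 10 and 13 with a library left out, where the lone library of a species is assumed to vary like the others. The replicate numbers are shared by both species, and the labels do not say whether they pair libraries. Deviations of same-numbered libraries correlated at 0.0099 across genes. With 2 libraries per species, this value cannot show whether same-numbered libraries shared any handling. With the replicate block, 4414 genes were called in place of 4405, and the 38 calls among pathway genes were again 38. Read counts were not used here, so values near 0 are given with no counting interval.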
